A study of Mus musculus with 6 samples.

Results

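Genes of the thyroid hormone axis were compared between VMHpvlm and VMHpvll, areas within the ventrolateral part of the mouse ventromedial hypothalamus (VMH), in females. The genes are Trh, Trhr, Thra, Thrb and Dio2, taken by symbol from the deposited table, so that 5 of its 47480 genes are described here. Both groups came from VgluT2-cre/Ai6 mice, in which cre from the VgluT2 (Slc17a6) locus switches on a green fluorescent reporter in glutamatergic cells and their descendants. Both were cut by laser from frozen sections. There were 3 libraries of VMHpvlm and 3 of VMHpvll, and each title carries F19, F20 or KH_161103, a name found once in each region. The sources used here give neither the age of the mice, nor how the borders were drawn, nor whether a shared name means 1 animal. No sorting of cells is described, and RNA of glia and vessels was present beside that of neurons.

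Thyrotropin-releasing hormone (TRH) is a peptide cut from the precursor that Trh encodes. Neurons of the paraventricular nucleus release it to drive thyrotropin from the pituitary, and TRH neurons elsewhere in the hypothalamus use it as a transmitter. Trhr encodes the TRH receptor, which couples to Gq proteins and phospholipase C. Thra and Thrb encode nuclear receptors for triiodothyronine, the active thyroid hormone, and Dio2 encodes the deiodinase that makes triiodothyronine from thyroxine, in the brain mostly in astrocytes and tanycytes. In the rodent VMH, triiodothyronine is known to act on energy balance through AMP-activated protein kinase.

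The sequence of the precursor shows how the peptide is made. The Trh transcript of the GENCODE M21 annotation held 5 copies of the unit that encodes the peptide, all in 1 reading frame and all in exon 3 of 3. They are shown because Trh had the widest difference between the regions of the 5 genes. Capitals mark the 12 bases for glutamine, histidine, proline and glycine, and the lower-case bases on each side encode pairs of lysine or arginine, where prohormone convertases cut.
Trh unit 1: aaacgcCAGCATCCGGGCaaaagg
Trh unit 2: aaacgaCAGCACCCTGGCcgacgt
Trh unit 3: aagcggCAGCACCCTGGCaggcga
Trh unit 4: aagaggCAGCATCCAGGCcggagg
Trh unit 5: aaacgtCAGCATCCTGGCaaaagg
The 5 cores were spelled in 4 ways. The units lie on the minus strand of mouse chromosome 6 (mm10), the first at chr6:92243088-92243111 and the last at chr6:92242710-92242733, within 402 bases. A read from any of them counts for Trh as a whole.

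On mm10 and in GENCODE M21, all 5 genes are annotated as protein-coding. Trh spans 92242061 to 92244650 on chromosome 6, Trhr 44196135 to 44235912 on chromosome 15 and Thra 98740638 to 98769006 on chromosome 11. Thrb spans 17660261 to 18038090 on chromosome 14, and Dio2 90724552 to 90738438 on chromosome 12. RefSeq promoter windows (GRCm38.p6), from 250 bases before to 50 after an annotated start, were at hand for Trh, Thrb and Dio2. They were searched on both strands for AGGTCA, the half-site bound by thyroid hormone receptors, and for TGACGTCA, the cyclic AMP response element. The half-site was found in 16.3% of the 32851 such windows in the RefSeq table, and the cyclic AMP element in 1.79%. The 250 bases before the Trh start, chr6:92244651-92244900 on the minus strand, held the half-site once, read on the opposite strand and shown in capitals. This sequence is shown because triiodothyronine is known to repress Trh in the paraventricular nucleus.
Trh: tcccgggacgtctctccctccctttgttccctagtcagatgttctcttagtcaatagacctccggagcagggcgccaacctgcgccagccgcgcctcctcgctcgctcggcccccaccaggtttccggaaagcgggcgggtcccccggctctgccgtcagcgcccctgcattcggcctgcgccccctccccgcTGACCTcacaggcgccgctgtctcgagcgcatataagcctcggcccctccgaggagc
The half-site of Thrb lies in chr14:17660752-17660811 on the plus strand, before a RefSeq start but inside the span that GENCODE M21 gives the gene. The cyclic AMP element of Dio2, a gene known to respond to cyclic AMP, lies before its RefSeq start, in chr12:90739098-90739157 on the minus strand. Capitals mark them.
Thrb: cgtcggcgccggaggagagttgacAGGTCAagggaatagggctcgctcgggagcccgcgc
Dio2: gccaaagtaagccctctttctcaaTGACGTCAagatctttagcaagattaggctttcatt
A match is a string of letters and was not measured as a binding site in these libraries. No half-site was found in the other Thrb window or in that of Dio2.

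The libraries held between 7157831 and 11293159 recovered reads. The values below are normalised read counts, which the authors made by dividing the counts of a library by its size factor, and library values are given in the order F19, F20, KH_161103. A difference is that of VMHpvlm less VMHpvll in log2(value + 1) from a limma fit with the pair name as a block, adjusted by Benjamini-Hochberg over 14522 genes and called at an adjusted p below 0.05. The labelled tissue was checked on 8 VMH neuron markers, of which 7 were higher in VMHpvlm and 1, Esr1, in VMHpvll. Their limma log2 differences ran from -1.55 for Esr1 to 3.27 for Nr5a1, with a median of 0.95. Slc17a6, whose locus drives the cre, was not called (limma log2 difference -0.08). The 7 tested markers of GABAergic neurons were higher in VMHpvll, and the 9 listed had a summed level between 2276 and 2483 in VMHpvlm and between 3713 and 4322 in VMHpvll. Markers of oligodendrocytes (9 of 10), vessels (7 of 10) and astrocytes (7 of 13) were also higher in VMHpvll. All 10 microglia markers were tested and not called, with a median log2 difference of -0.05. In bulk tissue, fewer cells of a type and less RNA per cell cannot be told apart, and the part of cell makeup in the results below was not tested.

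VMHpvlm had about double the Trhr RNA of VMHpvll and somewhat more Thra and Thrb RNA. Trh had a mean of 34.3 in VMHpvlm and 147 in VMHpvll but varied widely between pairs and was not called by limma, and the regions overlapped for Dio2. All 5 genes passed the filter of a mean of at least 10. By limma 3 of them were called, each higher in VMHpvlm, while 20% of all tested genes were called, 10.5% higher in VMHpvlm and 9.48% higher in VMHpvll. The regions did not overlap in 4 of the 5 genes, 3 with VMHpvlm higher and 1 with VMHpvlm lower. Over all tested genes, 28.0% did not overlap, 14.5% with VMHpvlm higher and 13.5% with VMHpvll higher. The 5 genes were picked for their shared axis with earlier results known, and a count of so few says little beside these shares.

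**Figure D1:**
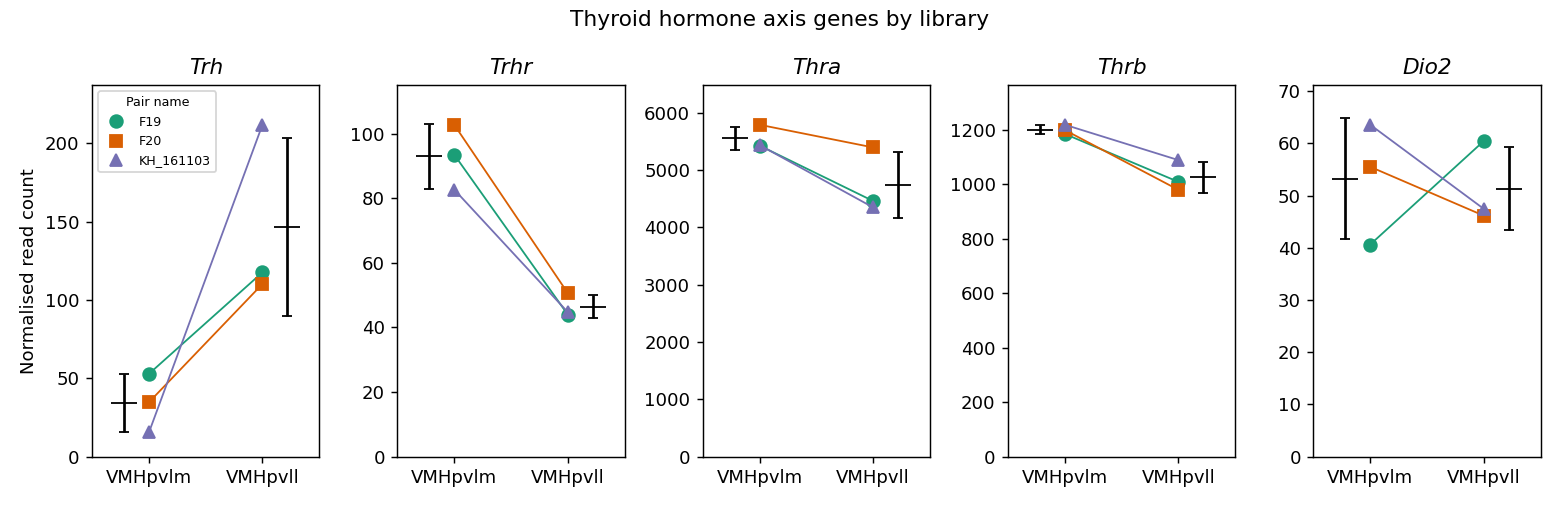
Normalised read counts of the 5 genes (vertical axes, each from 0) in the VMHpvlm and VMHpvll libraries, where each line joins the libraries of 1 name and the black marks beside the points are means with SD (n = 3). The lines of Trhr, Thra and Thrb run down toward VMHpvll in 3 of 3 pairs, those of Trh run up in 3 of 3 pairs, and those of Dio2 cross.

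Trh, the ligand of the axis, had 52.8, 34.7 and 15.4 normalised counts in VMHpvlm, against 118, 110 and 212 in VMHpvll. Each VMHpvll library was above each VMHpvlm library, and the KH_161103 libraries held both the lowest and the highest value of the 6. The means were 34.3 ± 18.7 in VMHpvlm and 147 ± 56.6 in VMHpvll (SD, n = 3 each), so that the VMHpvll mean was 4.27 times that of VMHpvlm. Within pairs the level in VMHpvll was 2.23 times that in VMHpvlm for F19, 3.18 times for F20 and 13.7 times for KH_161103. These levels rest on few reads, 39, 25 and 17 in VMHpvlm and 107, 74 and 232 in VMHpvll.

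The limma log2 difference of Trh was -2.16 ± 0.72 (SE), with a 95% interval from -4.81 to 0.50 and a Benjamini-Hochberg adjusted p of 0.228, so it was not called. Of the 35 tested genes with a difference at least as far toward VMHpvll, the other 34 were called. The robust prior gave Trh 0.393 prior degrees of freedom, against a median of 39.9 over genes, and 20 genes had fewer than 1. On the recovered whole reads the same pairs gave a call, with an adjusted p of 1.59e-07 by edgeR (log2 difference -2.21) and 0.0370 by DESeq2 (-2.17). Both methods also share information on variance over genes, and how far these calls rest on that was not tested. Without the KH_161103 pair the limma log2 difference was -1.39 (adjusted p = 6.89e-05), without F19 it was -2.67 (adjusted p = 3.11e-24) and without F20 -2.42 (adjusted p = 3.55e-25). By pair, the log2 difference was -1.14 in F19, -1.64 in F20 and -3.69 in KH_161103. The p-values of the fits without a pair rest mainly on the variance prior shared over genes, not on the spread of Trh between pairs. The sign was negative under each of the 21 alternatives, and 9 of them, the fits without a pair included, gave a call.

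Trh is also expressed in nuclei beside the VMH, so the markers of neighbouring nuclei are given with it. Otp, a transcription factor of neuroendocrine and other hypothalamic neurons, had 123, 110 and 99.9 in VMHpvlm, against 270, 231 and 248 in VMHpvll (limma log2 difference -1.17, and called). Oxt, the oxytocin precursor, had at most 0.908 in VMHpvlm and between 30.8 and 40.2 in VMHpvll. Hcrt, the orexin precursor of the lateral hypothalamus, had at most 1.35 in VMHpvlm and between 4.57 and 24.2 in VMHpvll. Pomc, the melanocortin precursor of the arcuate nucleus, went the other way, with 192, 328 and 99.0 in VMHpvlm, against 52.8, 75.95 and 14.6 in VMHpvll (limma log2 difference 2.21, and called). Crh, the precursor of corticotropin-releasing hormone, was also higher in VMHpvlm, at a mean of 19.5 ± 7.06 in VMHpvlm and 5.04 ± 1.22 in VMHpvll. Of the 14 markers in that list 7 were tested, 2 higher in VMHpvlm (Pomc and Crh) and 3 in VMHpvll (Otp, Oxt and Avp). Kiss1 was at 0 in each library, and the summed level of the 14 ran from 528.6 to 880.02 in VMHpvlm and from 669 to 828 in VMHpvll. In the order F19, F20, KH_161103, the log2 differences were -4.99, -5.36 and -4.19 for Oxt and -5.13, -4.45 and -2.89 for Avp. Those of Otp were -1.13, -1.07 and -1.30. Oxt had 0, 0 and 0.908 in VMHpvlm and Avp was at 0 there, so their differences depend on the floor. The median over the 7 tested markers was 0.13 in F19, -0.05 in F20 and -1.305 in KH_161103, the pair in which Trh differed most. Pmch, the precursor of melanin-concentrating hormone in the lateral hypothalamus, had 0.44 in F19, -0.05 in F20 and -1.84 in KH_161103, and was not called. Parpbp, on the opposite strand, covers 58.1% of the exon bases of Pmch, and whether counting used strand was not stated. The part of these neighbouring markers in the Trh values was not tested.

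Trhr, the receptor, had 93.5, 103 and 82.7 in VMHpvlm, against 43.97, 50.6 and 44.7 in VMHpvll. The lowest VMHpvlm library was well above the highest VMHpvll library, and the spread within each region was narrow. The means were 92.9 ± 10.04 in VMHpvlm and 46.4 ± 3.65 in VMHpvll, a fold of 2.001 of VMHpvlm over VMHpvll. The fold was 2.13 in F19, 2.03 in F20 and 1.85 in KH_161103. The limma log2 difference was 0.98 ± 0.18 (SE), with a Benjamini-Hochberg adjusted p of 5.98e-05, and Trhr was called in each of the 21 alternatives. From the top of all 14522 tested genes by log2 difference it ranked 197. Its reads numbered between 69 and 91 in VMHpvlm and between 34 and 49 in VMHpvll. The 8 VMH neuron markers had a median log2 difference of 0.95, near that of Trhr. By pair, their median was 1.01 in F19, 0.89 in F20 and 0.95 in KH_161103. The part of these markers in the Trhr values was not tested.

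Trhr2, which encodes the second TRH receptor of rodents, was below the filter and was not tested. It had 12.2, 6.94 and 11.8 in VMHpvlm, against 3.30, 2.98 and 0.913 in VMHpvll. As with Trhr, the VMHpvlm libraries were the higher ones and the regions did not overlap, at a level of a few reads.

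Ligand and receptor were then set against each other within each library. Per kilobase of annotated exon, the level of Trh over that of Trhr was 1.63, 0.976 and 0.540 in VMHpvlm, against 7.73, 6.29 and 13.7 in VMHpvll. In VMHpvlm Trh exceeded Trhr in F19, was near it in F20 and was below it in KH_161103. In VMHpvll Trh exceeded Trhr in each library. The ratio was not tested. It rests on exon lengths from GENCODE M21, while the annotation used for counting was not stated.

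**Figure D2:**
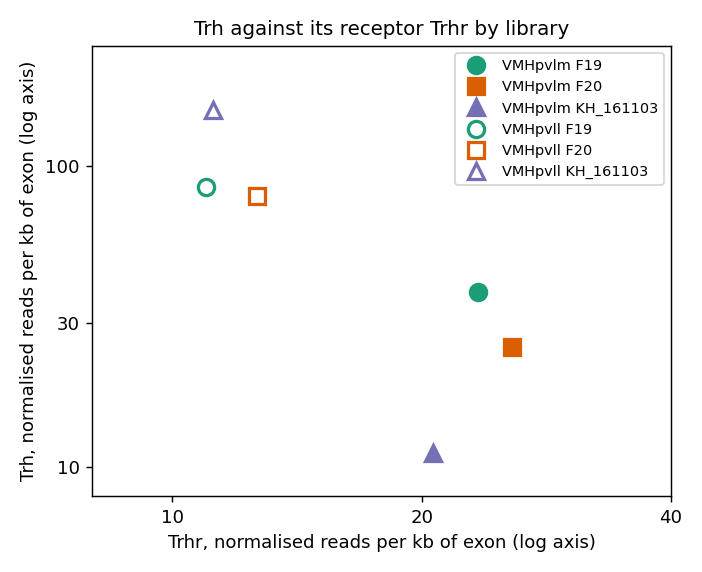
Level of Trh against that of Trhr in each library, both as normalised reads per kilobase of annotated exon on log axes, with filled symbols for VMHpvlm and open symbols for VMHpvll. The VMHpvlm libraries sit at 20.7 to 25.7 for Trhr and 11.2 to 38.2 for Trh, and the VMHpvll libraries at 10.99 to 12.7 for Trhr and 79.6 to 153 for Trh.

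Thra, the receptor gene with the higher level, had 5426, 5790 and 5435 in VMHpvlm, against 4460, 5394 and 4348 in VMHpvll. The regions were separated by a narrow margin, since the F20 library of VMHpvll came close to the lowest VMHpvlm library. The means were 5550 ± 207 in VMHpvlm and 4734 ± 574 in VMHpvll, a fold of 1.17. By limma the log2 difference of Thra was 0.24, with an SE of 0.04 and a Benjamini-Hochberg adjusted p of 3.21e-06, made up of 0.28, 0.10 and 0.32 in the pairs. The call was lost when eBayes was run without trend and robust (adjusted p = 0.2004), and in the fits that left out 1 library and the block, except the one without the F20 library of VMHpvll. Thra lies tail to tail with Nr1d1, which encodes the clock repressor REV-ERB alpha, and the genes share 263 exon bases on opposite strands, 5.70% of the exon bases of Thra. Nr1d1 was at 447 ± 21.3 in VMHpvlm and 427 ± 48.5 in VMHpvll (limma log2 difference 0.07, Benjamini-Hochberg adjusted p = 0.618). The libraries came from a stranded kit, but whether counting used strand was not stated.

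Thrb, the other nuclear receptor, had 1185, 1199 and 1219 in VMHpvlm, against 1009, 980 and 1089 in VMHpvll. The VMHpvlm libraries lay close together and above those of VMHpvll. The means were 1201 ± 16.95 in VMHpvlm and 1026 ± 56.5 in VMHpvll, also a fold of 1.17. By limma the log2 difference of Thrb was 0.23, with an SE of 0.05 and a Benjamini-Hochberg adjusted p of 0.00121, and with 0.23, 0.29 and 0.16 in the pairs. It was not called by DESeq2 (adjusted p = 0.0926), by eBayes without trend and robust (0.168), nor in the fits that left out 1 library and the block, except the one without the KH_161103 library of VMHpvll.

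The level of one receptor gene over the other was close in the regions. Per kilobase of exon, Thra was 7.41 ± 0.302 times Thrb in VMHpvlm and 7.44 ± 1.25 times Thrb in VMHpvll (SD, n = 3 each), with no test made. Splice forms cannot be told apart in counts per gene. For Thra that includes the alpha2 form, which does not bind the hormone, and for Thrb the forms that start at different promoters.

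Dio2, the enzyme gene, had 40.6, 55.5 and 63.6 in VMHpvlm, against 60.5, 46.2 and 47.5 in VMHpvll. The regions overlapped, and the F19 pair went the other way from the F20 and KH_161103 pairs. The means were 53.2 ± 11.6 in VMHpvlm and 51.4 ± 7.90 in VMHpvll. By limma the log2 difference of Dio2 was 0.04, with an SE of 0.22, a Benjamini-Hochberg adjusted p of 0.938 and a 95% interval from -0.40 to 0.48. Its sign depended on which pairs and libraries entered, and the reads behind it numbered 30 to 70 per library in VMHpvlm and 31 to 55 in VMHpvll. The astrocyte markers had summed levels of 31693 to 34053 in VMHpvlm and 37182 to 42405 in VMHpvll, with a median log2 difference of -0.20. Most of each sum was Slc1a2, with 18735 to 20031 in VMHpvlm and 22936 to 27152 in VMHpvll. Of the 13 markers, 7 were higher in VMHpvll and 6 were not called. The difference between Dio2 and these markers was not tested. Dio2 shares 100 exon bases, 1.72% of its own, with Gm26512 on the opposite strand, which had a mean of 2.59 ± 1.63 in VMHpvlm and 0.671 ± 0.588 in VMHpvll. Of 5 tested tanycyte and ependymal markers 2 were higher in VMHpvll. The summed level of the 10 listed ran from 289.7 to 407 in VMHpvlm and from 523 to 735 in VMHpvll, with Tmem212 at 0, and their part in the Dio2 values was not tested. Rax, a defining tanycyte gene, had at most 1.39 in VMHpvlm and at most 4.47 in VMHpvll, and the choroid plexus gene Ttr had at most 1.35 in VMHpvlm and was at 0 in VMHpvll. Kl, the 1 tested gene of the choroid plexus list, was higher in VMHpvll, with a mean of 153 ± 27.3 in VMHpvlm and 264 ± 34.7 in VMHpvll. The other listed genes, Folr1, Aqp1, Kcnj13 and Otx2, had at most 1.35 in any library, so Kl does not speak for the list.

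**Figure D3:**
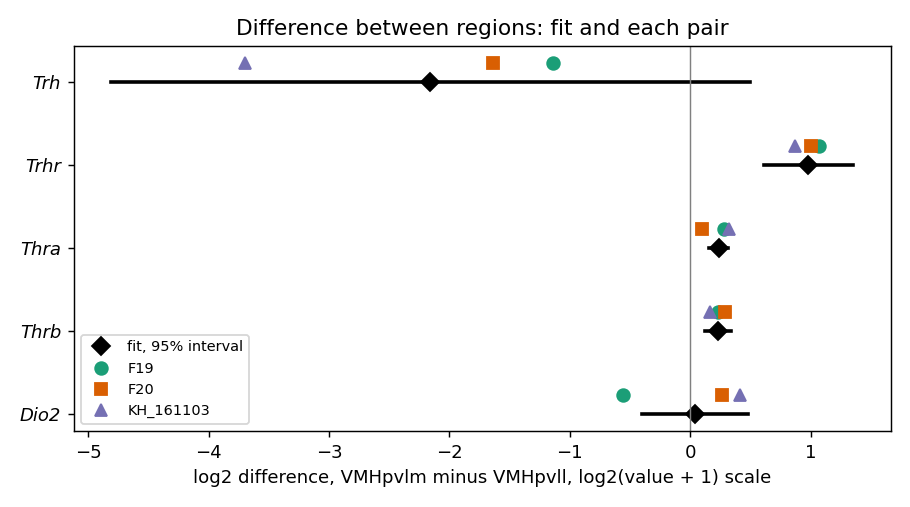
Log2 difference of each gene on the horizontal axis, VMHpvlm minus VMHpvll in log2(value + 1), with black diamonds and bars for the limma estimate and its 95% interval and coloured symbols for the 3 pairs. The Trh interval runs from -4.81 to 0.50 and its pairs from -3.69 to -1.14, whereas the Trhr, Thra and Thrb intervals lie above 0 and that of Dio2 spans 0.

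The mean levels per kilobase of exon had the same order in both regions, and the distance of Trh from its neighbours in that order differed. In VMHpvlm, Thra was at 1203 ± 45.0, Thrb at 162 ± 2.29, Trh at 24.8 ± 13.5, Trhr at 23.2 ± 2.51 and Dio2 at 9.16 ± 2.002 normalised reads per kilobase (SD, n = 3). There Trh and Trhr did not differ beyond their spread. In VMHpvll, Thra was at 1026 ± 124, Thrb at 139 ± 7.64, Trh at 106 ± 40.9, Trhr at 11.6 ± 0.912 and Dio2 at 8.83 ± 1.36. There the range of Trh, 79.6 to 153, took in that of Thrb, 132 to 147. By mean over the 6 libraries, Thra stood above 98.8% of the tested genes and Thrb above 88.0%, and Trh, Trhr and Dio2 above 34.3%, 29.4% and 24.2%, counts that are not per length.

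The genes most like each of the 5 over the 6 libraries are given as a description, by Pearson r of log2(value + 1) among 11126 genes with a mean of at least 50. All points share their library and their region. For Trh they were Necab2, Tmem132d, Ncan and Rnh1, with r between 0.984 and 0.987. Pearson r leaves out the size of a difference, which was far smaller in these genes than in Trh. In the order VMHpvlm, VMHpvll, the means were 114.5 and 138.4 for Necab2 and 821.5 and 943.3 for Tmem132d. They were 1368 and 1550 for Ncan, and 108.7 and 127.9 for Rnh1. The genes most like Trhr were Rai14, Rasgrf2, Kcnh7 and Tenm2, with r of 0.997 or 0.998, and 381 genes had an r above 0.95. Elovl4, Zbtb7a and Rab11fip3 were among the genes most like Thra, and Rps6ka2, Ltbp3, Lrp12 and Vps4b were most like Thrb. Gtf2e2, Rpl7, Cacng3 and Zfp882 were most like Dio2, for which 3 genes had an r above 0.95.

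Other genes of the pathway came from 9 lists with 105 genes besides the 5. Of these 87 were tested, and 20 were higher in VMHpvlm, 13 were higher in VMHpvll and 54 were not called. That is 37.9% called, against 20% of all tested genes. The lists were not matched to all tested genes for level of expression, which affects how readily a gene is called. The gap between the shares was not tested. The median log2 difference was -0.01, against 0.0025 over all tested genes. Without the F19 pair the counts were 16 and 7, without KH_161103 15 and 4, and by DESeq2 13 and 4. Over all tested genes the counts in these settings were 1136 and 1005, 935 and 838, and 648 and 582.

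Genes that make and break down TRH divided between the regions. Of 9 tested, VMHpvlm was the higher region for 4 and VMHpvll for 2, with a median log2 difference of -0.04. Pcsk1, a convertase that cuts at the basic pairs shown in the Trh units, was at 357 ± 56.2 in VMHpvlm and 165 ± 26.6 in VMHpvll (limma log2 difference 1.11, Benjamini-Hochberg adjusted p = 7.67e-12). Pcsk2, the other such convertase, went the opposite way, at 2399 ± 122 in VMHpvlm and 2723 ± 137 in VMHpvll (log2 difference -0.18). Pam, which turns the glycine that follows proline into the amide of the finished peptide, was at 5690 ± 309 in VMHpvlm and 3567 ± 263 in VMHpvll. Trhde, which encodes the membrane enzyme that breaks down TRH outside cells, was at 331 ± 20.9 in VMHpvlm and 188 ± 22.7 in VMHpvll (log2 difference 0.82, Benjamini-Hochberg adjusted p = 1.30e-08 by limma). The exons of Trhde overlap the antisense gene Gm15723 over 6.67% of their bases. Trhde, Pcsk1, Pam and Cpd (0.15) were thus higher in VMHpvlm, and Pcsk2 and Cpe (-0.10) in VMHpvll.

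Of 13 tested genes that carry the signal of Gq-coupled receptors, VMHpvlm was the higher region for 5 and VMHpvll for 2, with a median log2 difference of 0.08. The phospholipases Plcb1 (1615 ± 72.0 in VMHpvlm and 943 ± 58.7 in VMHpvll) and Plcb4 (1490 ± 85.7 and 895 ± 58.3 in the same order) had log2 differences of 0.78 and 0.73. The kinase gene Prkcb and the calcium release channel gene Itpr1 were higher in VMHpvlm, at log2 differences of 0.45 and 0.24. Plcb3 (-0.45) and Itpr2 (-0.22) were higher in VMHpvll. The G protein gene Gnaq was not called, with 2372 ± 89.7 in VMHpvlm and 2242 ± 53.5 in VMHpvll. These genes serve many receptors besides that of TRH.

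Thyroid hormone enters cells through transporters, and of 6 tested 3 were higher in VMHpvll and 3 were not called, with a median log2 difference of -0.18. Slco1c1, a thyroxine transporter of brain vessels and astrocytes, was at 192 ± 24.9 in VMHpvlm and 255 ± 13.99 in VMHpvll (limma log2 difference -0.42, Benjamini-Hochberg adjusted p = 0.00402). Slc7a5 and Slc3a2, which encode the chains of an amino acid transporter that also carries thyroid hormone, had log2 differences of -0.37 and -0.24. The vascular markers had summed levels of 2065 to 2397 in VMHpvlm and 2956 to 3244 in VMHpvll, with a median log2 difference of -0.44, and their part in these values was not tested.

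Dio3, which encodes the enzyme that inactivates triiodothyronine, had 4.06, 0 and 0 in VMHpvlm, against 2.20, 1.49 and 0.913 in VMHpvll, too few reads for a test. Dio1 had no reads in any library. Usp33, which encodes an enzyme that removes ubiquitin from the Dio2 protein, was at 1891 ± 47.2 in VMHpvlm and 1432 ± 73.5 in VMHpvll (limma log2 difference 0.40, Benjamini-Hochberg adjusted p = 7.15e-09), and was the 1 gene called of 6 tested for the deiodinases and Dio2 turnover, whose median log2 difference was -0.03. The opposite-strand transcript Gm43857 covers 15.3% of its exon bases. Secisbp2, which serves the making of selenoproteins such as the deiodinases, had a log2 difference of -0.17 and was not called, nor were Wsb1 (-0.05) and Ube2j2 (-0.12) of the ubiquitin pathway. Of the proteins that bind the hormone, Crym, a crystallin of the cytosol, had a mean of 20.8 ± 3.25 in VMHpvlm and 23.9 ± 6.21 in VMHpvll without a call. Pkm, a pyruvate kinase gene also known for binding triiodothyronine, was higher in VMHpvll (log2 difference -0.29), and Gm49759 on the same strand covers 15.3% of its exon bases.

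Of 18 tested nuclear partners and coregulators of the receptors, 3 were higher in VMHpvlm and 15 were not called, with a median log2 difference of 0.02. Rxrg, one of the retinoid X receptors that pair with thyroid hormone receptors, had 463, 455 and 455 in VMHpvlm, against 322, 332 and 373 in VMHpvll (limma log2 difference 0.42, Benjamini-Hochberg adjusted p = 0.000103). Its relatives Rxra (330 ± 5.34 in VMHpvlm and 340.0 ± 43.9 in VMHpvll) and Rxrb (177 ± 7.55 and 159 ± 22.8 in the same order) were not called. The corepressor gene Ncor1 was higher in VMHpvlm at a log2 difference of 0.13, and the coactivator gene Ncoa2 (0.13) was not called.

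Of 14 tested genes known to respond to thyroid hormone in brain, 4 were higher in VMHpvlm, 3 in VMHpvll and 7 were not called, with a median log2 difference of -0.08. Klf9, a transcription factor gene, was at 649 ± 21.9 in VMHpvlm and 520 ± 29.99 in VMHpvll (limma log2 difference 0.32, Benjamini-Hochberg adjusted p = 0.000440). Nrgn, which encodes the calmodulin-binding neurogranin, averaged 3220 ± 505 in VMHpvlm and 2393 ± 408 in VMHpvll (0.43). Shh (1.17) and Camk4 (0.24) were also higher in VMHpvlm. The exons of Shh overlap the antisense gene 9530036O11Rik over 15.7% of their bases. Ppargc1a (-0.38), Sema7a (-0.39) and the astrocyte channel gene Kcnj10 (-0.16) were higher in VMHpvll. Hr, a corepressor gene that the hormone induces, had a mean of 244 ± 50.3 in VMHpvlm and 216 ± 16.3 in VMHpvll without a call (0.16, 95% interval -0.06 to 0.38).

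Tshr, the receptor of thyrotropin, had 16.3, 26.4 and 18.2 in VMHpvlm, against 5.50, 4.47 and 0.913 in VMHpvll. Though at few reads, the regions did not overlap (log2 difference 2.35 with an SE of 0.50, limma, Benjamini-Hochberg adjusted p = 0.000393). Of the 13 genes of thyrotropin and the thyroid gland 5 were tested, with a median log2 difference of 0.22, and Cga and Foxe1 had no reads in any library. Nkx2-1, a factor of both the thyroid and the hypothalamus, was higher in VMHpvlm (log2 difference 0.22), and Slc5a5, the iodide transporter gene (-0.34), and the neuropeptide receptor gene Gpr83 (-0.41) were higher in VMHpvll.

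For AMP-activated protein kinase and its lipid targets, the median log2 difference of 14 tested genes was -0.05, and 1 was called. This was Camkk2, which encodes a kinase that activates it, at 557 ± 13.0 in VMHpvlm and 313 ± 1.74 in VMHpvll (limma log2 difference 0.83, Benjamini-Hochberg adjusted p = 1.78e-11). Prkaa1 and Prkaa2, the catalytic subunits, had log2 differences of 0.13 and -0.05 and were not called. Fasn (0.08) and Acaca (-0.04), enzymes of fatty acid synthesis, and Cpt1c (-0.13) were not called either.

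**Figure D4:**
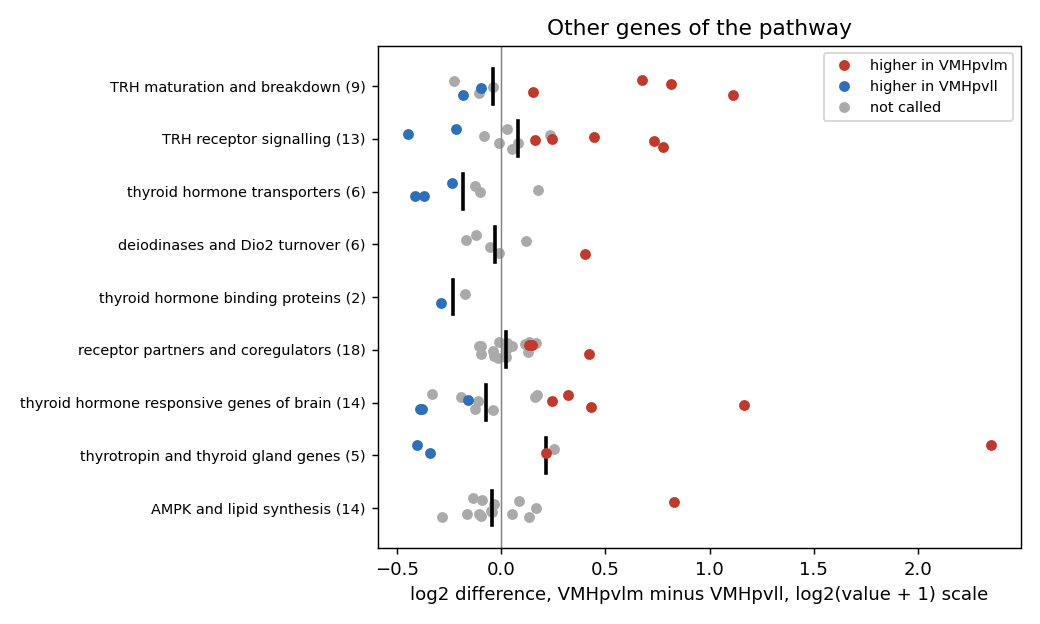
The tested genes of the 9 lists by log2 difference, VMHpvlm minus VMHpvll, 1 row per list with its number of tested genes, where the thick vertical mark is the list's median. Red points were called higher in VMHpvlm (20 genes in all), blue points higher in VMHpvll (13 genes), and grey points were not called; Tshr is the red point farthest to the right.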

How the data were processed

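Laser-captured VMHpvlm and VMHpvll of female mice gave 6 RNA sequencing libraries, 3 per region. The submitters' processing notes name HISAT2, featureCounts and the build mm10, with no version. The deposited values are a normalised signal: counts per gene that the authors divided by a size factor for each library, as whole multiples of the value of 1 read show in 100% of non-zero values (tolerance 0.05 reads). The annotation used for counting, and whether it used strand, were not stated.

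The test was limma 3.58.1 (R 4.3.3; lmFit, eBayes with trend and robust) on log2 of the value with a pseudocount of 1, over 14522 genes with a mean of at least 10, with region and pair name as terms, two-sided, with Benjamini-Hochberg adjustment. This scale understates the change of low genes. There were 2 residual degrees of freedom, to which the variance prior added a median of 39.9. The libraries were paired by the name that their titles share. Deviations from the region means correlated at 0.255, 0.244 and 0.363 for the same name and between -0.247 and 0.00670 otherwise. Deviations within a region are tied to one another, so these ranges are not independent. Since no source ties a name to 1 animal, the p-values cover only library-to-library spread, which may be technical. Alternatives included edgeR 4.0.16 and DESeq2 1.42.0 on recovered reads.

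The 5 genes and the lists were chosen with earlier results of these data known. Genes named from a list were up to 4 with the smallest p and those with a direct role in hormone supply or receptor activity. Cpe, Cpd, Gnaq, Plcb3, Itpr2, Camk4, Sema7a, Kcnj10, Prkaa2, Acaca, Trhr2, Dio1, Cga, Foxe1 and single markers were named after their values were seen. Of the listed genes 1 had no row by its symbol. A few genes under this rule are not reported here. Exon lengths and overlaps came from GENCODE M21.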

Additional observations from a re-analysis of the deposited data

How the results depend on the processing

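Trhr was called in each of the 21 alternatives, at log2 differences between 0.91 and 1.06. Trh, not called in the fit described above, was called without a filter on low values (-2.158, limma adjusted p = 0.00124), with edgeR (-2.212), with DESeq2 (-2.165) and without each pair in turn. It was also called in the fits without the block that left out the F19 or KH_161103 library of VMHpvlm or the KH_161103 library of VMHpvll, and leaving out a pair or library gave -2.667 to -1.39. For the Trh fits without a pair, the p-values rest mainly on the variance prior, and the part of such sharing over genes in its other calls was not tested. Thra was lost without trend and robust (0.2356), and leaving out a pair or library gave 0.1777 to 0.3331. Thrb was lost without trend and robust (0.2284) and with DESeq2 (0.22), and leaving out a pair or library gave 0.196 to 0.2721. Dio2 was never called, and it changed sign in 6 of the 9 fits that left out a pair or library (-0.1504 to 0.3375), among them those without the F20 pair (-0.074) and without KH_161103 (-0.1504). Single-library values were -0.003799, -0.09991, -0.03253 and -0.01284 where the sign changed.

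In the order VMHpvlm, VMHpvll, the fit described above had 1528 and 1377 genes called as higher in the region. Without the replicate block the counts were 937 and 863, without trend and robust 189 and 233, with edgeR 1437 and 1436, and with DESeq2 648 and 582. Scaled to the same total they were 1751 and 1222. The other pathway genes numbered 13 and 6 without the replicate block, 6 and 0 by limma without trend and robust (14 and 11 at an unadjusted p below 0.05), and 13 and 4 with DESeq2, where the list counts above were 20 and 13. Leaving out a pair or library gave 686 to 1511 and 643 to 1361 genes, and 11 to 18 and 3 to 11 pathway genes. The replicate block changed no call of the 5 genes, and the cause of these changes was not tested. Trh, Trhr and Dio2 rest on 17 to 232 reads per library.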
